A study of Mus musculus with 4 samples.

Results

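Tcf7, Lef1, Satb1, Bach2, Myb, Tox, Ets1, Bcl6, Bcl11b and Zeb1 encode transcription factors of naive and stem-like T cells, and all 10 had a row in both deposited gene tables, out of 22120 gene symbols kept from both. They were chosen by name, and where a symbol had several rows, that of the highest mean stands for it. RNA was sequenced from induced regulatory T (Treg) cells of C57BL/6 mice, made from sorted naive T cells. The culture lasted 3 days, with plated anti-CD3/CD28 at 1 µg/ml and TGF-beta, the cytokine that induces the Treg factor Foxp3, at 2 ng/ml. There were 2 libraries labelled MSC KO, a label for knockout of Msc (the gene of musculin, a repressor of the basic helix-loop-helix class), and 2 labelled WT, and both groups had the same strain and culture. The first table paired MSC KO 1 with WT 1 and the second MSC KO 2 with WT 2. The labels give neither the design of the Msc allele nor whether the replicates came from separate mice or cultures. The p-values of the fits to all 4 libraries therefore measure only the spread between these libraries, which may be technical. Those deposited by the authors set 1 library against 1 and measure no spread between replicates.

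These factors keep T cells in a state from which effector programs can still be chosen. TCF1 (the product of Tcf7) and LEF1 bind DNA through a shared high-mobility-group box and work with beta-catenin or Groucho co-repressors, and their transcripts are known to be abundant in naive T cells and to decline as effector cells differentiate. SATB1 organises chromatin loops and enhancers in thymocytes and in developing Treg cells, BCL11B and ETS1 maintain T cell identity, and BACH2 and BCL6 repress effector genes. MYB supports progenitors and stem-like memory cells, TOX is a high-mobility-group factor of CD4 lineage development and of persistently stimulated T cells, and ZEB1 is a zinc finger repressor that binds E-boxes.

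Levels are in FPKM, that is fragments divided by transcript length and by the fragments mapped in the library. A rough depth, read off the steps of low values, was 29500000 and 32900000 fragments (MSC KO) and 26600000 and 34500000 fragments (WT). Msc went against the labels, at 0.331 and 0.939 FPKM (MSC KO) and 0.0243 and 0.0178 FPKM (WT), so every direction is given for the libraries as labelled, and "MSC KO" beside a value means the library labelled so. The level of Msc was under 1 FPKM in every library, and neither of the authors' deposited tables called it. Foxp3, the defining Treg gene, was at 2.97 and 7.05 FPKM (MSC KO) against 62.8 and 66.0 FPKM (WT). The summed level of 8 T cell markers was 1618 to 1708 FPKM in the MSC KO-labelled libraries and 1634 to 1682 FPKM in WT. The B cell markers (5 genes, 5.04 to 6.02 FPKM in MSC KO, 6.95 to 7.25 FPKM in WT) were led by Cd79b, the natural killer markers (1.73 to 2.78 FPKM in MSC KO, 4.52 to 5.56 FPKM in WT) by Klrd1, with Ncr1 at 0 in all 4 libraries, and the myeloid markers summed to under 1 FPKM in every library. CD8 markers summed to 9.13 and 19.8 FPKM (MSC KO) and 11.3 and 11.7 FPKM (WT), most of it Cd8b1. The part of these markers in the results below was not tested. In such bulk samples, fewer cells of a type and less RNA per cell cannot be told apart.

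The factors differed from WT in both directions. Satb1 was higher in MSC KO, at 8.52 and 3.28 times WT in the 2 tables. Myb (0.119 and 0.204 times WT) and Tox (0.223 and 0.423 times WT) were lower. The other 6 tested members lay between 0.684 and 1.33 times WT, and Bcl6 was at 0.931 and 0.516 times WT at a level under 1 FPKM. Of the 9 tested members 0 passed an adjusted p of 0.05 (limma, table as block, on log2(FPKM + 1)), against 0.00945% of the 10587 genes tested (1 gene), and 5 had an unadjusted p under 0.05, against 20.4% of tested genes. The fit left 1 residual degree of freedom. By the authors' deposited tables, whose test sets 1 library against 1, 2 of the 10 members (Satb1 and Myb) were called in the first table, against 0.656% of its tested genes, and the same 2 in the second, against 0.549%. Satb1 was called as higher in both of the authors' deposited tables, against 0.179% of genes tested in both, and Myb as lower, against 0.0598% (0.239% in either direction). In the first of the authors' deposited tables, calls of any gene as higher made up 0.504%. A difference of at least 2-fold in both tables, in log2(FPKM + 1), was seen for 3 members against 2.13% of tested genes. Of these Myb and Tox were lower, against 0.812%, and Satb1 higher, against 1.32%.

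**Figure D1:**
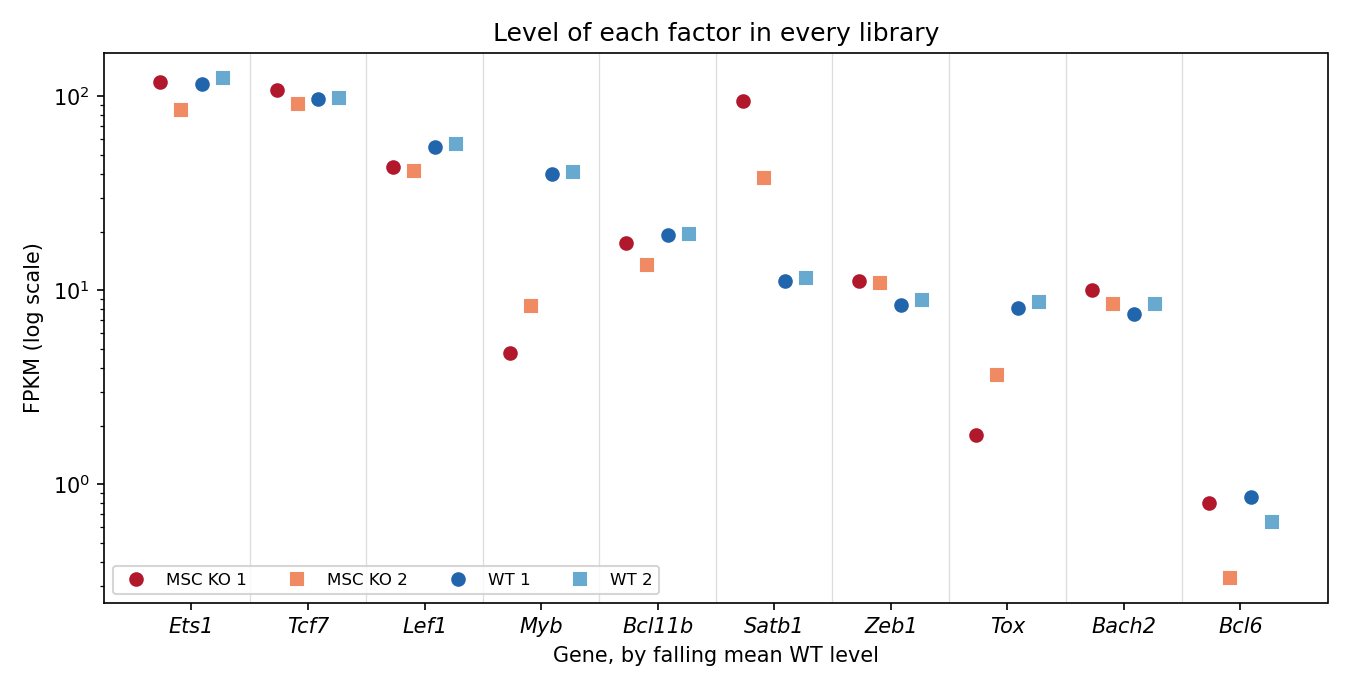
FPKM of each factor on a log axis in MSC KO 1, MSC KO 2, WT 1 and WT 2, one point per library, with genes ordered by their mean WT level. The WT points lie close together for every factor but Bcl6, while Satb1 lies above WT and Myb and Tox below it in both MSC KO-labelled libraries.

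Both WT libraries gave nearly the same level of every member but Bcl6. For the other 9, WT 1 was 0.892 to 0.985 times WT 2. The MSC KO-labelled libraries differed more from each other, with MSC KO 1 at 0.492 to 2.49 times MSC KO 2. For Satb1, Myb and Tox the difference was larger in the first table than in the second. Joint scaling of the tables is not stated, so these ratios across tables are a description.

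Satb1 (chromosome 17, mm9, 51875511 to 51972615) was at 94.7 (MSC KO 1) and 38.1 FPKM (MSC KO 2), against 11.1 (WT 1) and 11.6 FPKM (WT 2). Both MSC KO-labelled libraries were above both WT libraries, as was true of 26.6% of tested genes. Ranked among all tested genes of its library, Satb1 stood at the 90.1 and 77.7 percentile in the MSC KO-labelled libraries, against 46.3 and 46.8 in WT. On the log2(FPKM + 1) scale the fitted difference was 2.31 ± 0.38 (SE, 2 libraries per group), with a 95% interval of 1.17 to 3.44 and an adjusted p of 0.153 by limma over all genes. In the authors' deposited tables its q-value was 0.0118 (first) and 0.0143 (second). The estimated fragments behind it, about 17444 and 7835 (MSC KO) against 1844 and 2501 (WT), gave a 95% counting interval of the ratio of 8.12 to 8.94 (first table) and 3.13 to 3.43 (second), which covers counting error only.

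Myb (chromosome 10, mm9, 20844735 to 20880790) went the other way. It was at 4.77 (MSC KO 1) and 8.31 FPKM (MSC KO 2), against 39.9 (WT 1) and 40.7 FPKM (WT 2). The groups of Myb did not overlap, with MSC KO lower, as was true of 32.5% of tested genes. Among tested genes it stood at the 24.96 and 37.7 percentile in the MSC KO-labelled libraries, against 78.3 and 78.0 in WT. The fitted difference was -2.49 ± 0.20 (95% interval -3.10 to -1.89, adjusted p = 0.115, limma), which was number 26 by size among the lower differences of the 10587 genes. With the table left out of the design Myb passed (adjusted p = 0.0451, limma), and 153 of the 10587 genes passed in all. The authors' deposited tables gave it a q-value of 0.0118 and 0.0143. Satb1 and Foxp3 had the same q-values, so these do not rank the genes. Its relatives differed by less than 2-fold in both tables. Mybl2, a cell cycle regulator, was at 16.0 and 10.9 FPKM (MSC KO) against 15.6 and 16.2 FPKM (WT), and Mybl1 at 0.845 and 1.43 FPKM (MSC KO) against 1.29 and 1.33 FPKM (WT).

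Tox (chromosome 4, mm9, 6614532 to 6917870) was at 1.81 (MSC KO 1) and 3.67 FPKM (MSC KO 2), against 8.12 (WT 1) and 8.67 FPKM (WT 2). Both MSC KO-labelled libraries lay below both WT libraries, as was true of 32.5% of tested genes. The fitted difference was -1.38 ± 0.20 (95% interval -1.99 to -0.76, adjusted p = 0.14, limma). The authors' deposited tables did not call it (q = 0.268 and 0.551). Its relatives had different patterns. Tox4, an abundant and broadly expressed member, was at 24.4 and 21.0 FPKM (MSC KO) against 23.1 and 24.0 FPKM (WT), Tox2 at 1.49 and 0.365 FPKM (MSC KO) against 0.145 and 0.104 FPKM (WT), and Tox3 under 0.05 FPKM in every library. Tox2 stayed under the filter of a mean of 1 FPKM and was not tested.

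With 1 library left out the table could not be kept as a block, so 2 choices changed at once. With all 4 libraries and no block, the adjusted p by limma was 0.0943 for Satb1, 0.0451 for Myb and 0.094 for Tox, and 153 of 10587 genes passed. Without MSC KO 1 the fitted difference was 1.66 for Satb1, -2.15 for Myb and -1.01 for Tox. Without MSC KO 2 it was 2.95, -2.84 and -1.74. Without WT 1 it was 2.28, -2.51 and -1.42, and without WT 2 it was 2.34, -2.48 and -1.33. In the fits without a library, a group left with 1 library borrowed its spread from the other, so only the size of the difference is given here.

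For Satb1, Myb and Lef1, the bases just upstream of the most 5′ start in RefSeq (GRCm38.p6) are shown as DNA to set beside the levels. Satb1 and Myb are the 2 members that the authors' deposited tables called, and Lef1 is a member whose level differed less. Musculin belongs to a class of factors that bind E-boxes, so the motif CANNTG, which reads the same on both strands, is in capitals. Satb1 is given at chr17:51833291-51833540 (minus strand), Myb at chr10:21160985-21161234 (minus strand) and Lef1 at chr3:131110047-131110296 (plus strand), each 5′ to 3′.
Satb1: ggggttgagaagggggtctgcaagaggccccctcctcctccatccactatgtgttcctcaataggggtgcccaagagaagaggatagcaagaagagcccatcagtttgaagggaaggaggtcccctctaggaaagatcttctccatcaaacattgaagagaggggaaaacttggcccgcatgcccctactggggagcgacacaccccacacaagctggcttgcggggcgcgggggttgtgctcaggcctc
Myb: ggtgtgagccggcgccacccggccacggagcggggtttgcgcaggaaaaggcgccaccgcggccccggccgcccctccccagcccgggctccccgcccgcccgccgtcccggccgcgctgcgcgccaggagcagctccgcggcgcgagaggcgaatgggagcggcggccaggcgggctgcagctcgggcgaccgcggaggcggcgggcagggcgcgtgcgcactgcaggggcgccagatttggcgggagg
Lef1: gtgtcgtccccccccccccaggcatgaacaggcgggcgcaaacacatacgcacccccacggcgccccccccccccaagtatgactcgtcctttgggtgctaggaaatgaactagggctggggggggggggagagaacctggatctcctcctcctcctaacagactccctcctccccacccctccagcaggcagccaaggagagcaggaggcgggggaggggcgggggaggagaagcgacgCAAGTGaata
The 250 bases hold no CANNTG in Satb1 and Myb and 1 in Lef1, against 66.2% of the 32851 RefSeq start windows of that length with at least 1. Over all starts in the table, CANNTG was in 2 of 5 windows of Satb1, 0 of 1 of Myb and 4 of 4 of Lef1. Some windows overlap, so these counts are not independent. The first 2 windows of Lef1 hold the same match, and the last 2 of Satb1 share bases. The TCF/LEF core letters CTTTGA, on either strand, were in 4 of the 16 windows of the 7 members looked up that had an entry, namely 1 each of Lef1, Bach2, Bcl6 and Bcl11b, against 13.8% of all windows. The tables do not say which start these cells used, and a match of letters is no binding site by itself.

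The TCF/LEF pair was high in all 4 libraries. Tcf7 (chromosome 11, mm9, 52066105 to 52095752) was at 107 (MSC KO 1) and 91.5 FPKM (MSC KO 2), against 97.0 (WT 1) and 98.5 FPKM (WT 2). The WT libraries lay between the MSC KO-labelled ones. The fitted difference was 0.02 ± 0.11, with a 95% interval of -0.31 to 0.35 (adjusted p = 0.935, limma), and it was -0.021 after scaling all libraries to an equal sum and -0.094 without MSC KO 1. Lef1 (chromosome 3, mm9, 130813202 to 130927266 in the first table) was at 43.2 and 41.1 FPKM (MSC KO) against 55.1 and 57.1 FPKM (WT). Here the groups did not overlap, as was true of 59.1% of all tested genes in either direction. The fitted difference of Lef1 was -0.40 ± 0.09 (95% interval -0.69 to -0.12, adjusted p = 0.187, limma), about 0.785 and 0.721 times WT. In fits with no block it was -0.44 without MSC KO 1, -0.37 without MSC KO 2, -0.43 without WT 1 and -0.38 without WT 2. Both genes stood at or above the 79.1 percentile of tested genes in every library. The family's other genes were scarce, with Tcf7l1 at 0.880 and 0.752 FPKM (MSC KO) against 1.35 and 1.40 FPKM (WT), and Tcf7l2 at 0.0207 and 0.312 FPKM (MSC KO) against 0.275 and 0.264 FPKM (WT).

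**Figure D2:**
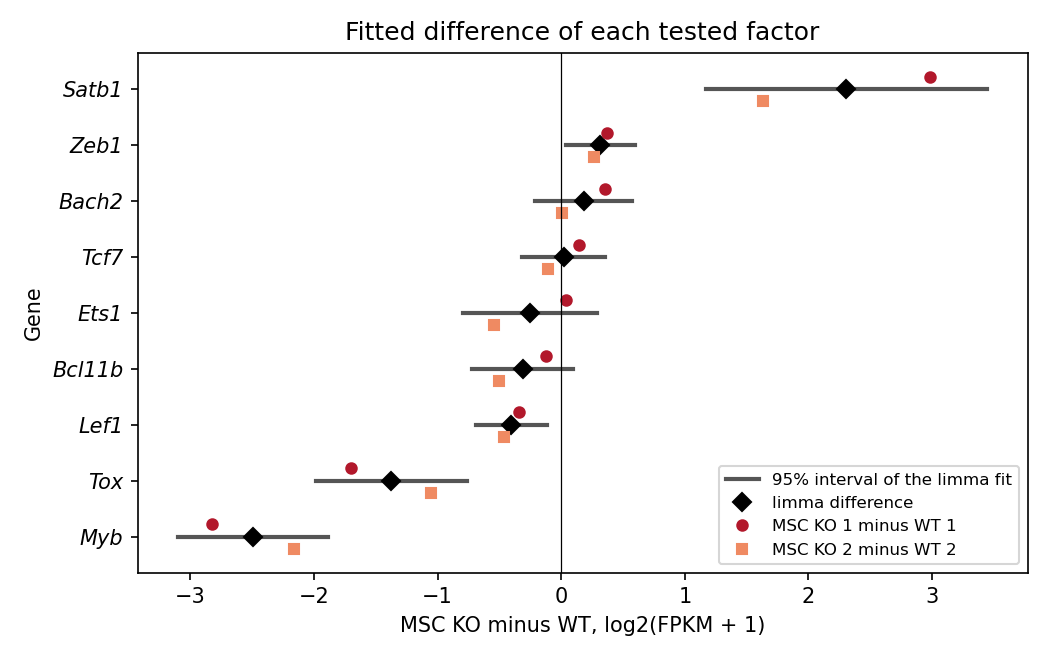
Fitted MSC KO minus WT difference of each tested factor (diamonds) with its 95% interval (bars) on the log2(FPKM + 1) scale, beside the difference in each table (circles, first table; squares, second). The intervals of Satb1, Tox, Myb, Lef1 and Zeb1 leave out 0 before adjustment over all genes, and those of Bach2, Tcf7, Ets1 and Bcl11b cover it.

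The T cell identity factors Ets1 and Bcl11b differed mainly in the second table. Ets1 (chromosome 9, mm9, 32503626 to 32565405), the most abundant member in WT, was at 119 (MSC KO 1) and 85.1 FPKM (MSC KO 2), against 116 (WT 1) and 124 FPKM (WT 2). The groups overlapped, since MSC KO 1 lay between the WT libraries. Its difference was 0.04 in the first table but -0.54 in the second (fitted -0.25 ± 0.18, 95% interval -0.79 to 0.29, adjusted p = 0.488, limma). Under quantile normalization the first-table difference was -0.04. Bcl11b (chromosome 12, mm9, 109148612 to 109241624) was at 17.6 and 13.6 FPKM (MSC KO) against 19.2 and 19.6 FPKM (WT). Both MSC KO-labelled values lay under WT, as was true of 32.5% of tested genes. The first did so by less (-0.12 against -0.50 in the second table). The fitted difference of Bcl11b was -0.31 ± 0.14 (95% interval -0.72 to 0.10, adjusted p = 0.315, limma). In fits with no block, the difference of Ets1 was -0.49 without MSC KO 1 and -0.015 without MSC KO 2, and that of Bcl11b -0.49 and -0.14. Without WT 1 the differences were -0.30 (Ets1) and -0.33 (Bcl11b), and without WT 2 they were -0.20 and -0.30. The ETS relatives Fli1 (8.05 and 5.38 FPKM (MSC KO) against 7.45 and 7.52 FPKM (WT)) and Elf1 (34.1 and 27.3 FPKM (MSC KO) against 28.7 and 29.9 FPKM (WT)) were also lower in the second table and higher in the first. Gabpa (14.2 and 12.6 FPKM (MSC KO) against 14.1 and 13.6 FPKM (WT)) did the same by less, and Ets2 (6.78 and 9.05 FPKM (MSC KO) against 7.70 and 7.69 FPKM (WT)) the opposite. Bcl11a, which is known from B cell and progenitor development, was under 0.15 FPKM in every library.

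Of the repressors, Bach2 and Zeb1 lay between 1.00 and 1.33 times WT, and Bcl6, untested, lay lower in the second table. Bach2 (chromosome 4, mm9, 32504409 to 32673083) was at 10.0025 (MSC KO 1) and 8.55 FPKM (MSC KO 2), against 7.59 (WT 1) and 8.51 FPKM (WT 2). MSC KO 2 and WT 2 were almost equal, so that its sign in the second table turned under quantile normalization and after scaling to an equal sum (fitted 0.18 ± 0.13, 95% interval -0.21 to 0.57, adjusted p = 0.492, limma). With the 4 rows of the symbol summed the difference was 0.02. Its relative Bach1 was at 1.46 and 1.00 FPKM (MSC KO) against 2.57 and 2.49 FPKM (WT) (-0.67 ± 0.16, adjusted p = 0.189, limma). Zeb1 (chromosome 18, mm9, 5491498 to 5774909) was at 11.2 and 10.9 FPKM (MSC KO) against 8.42 and 8.93 FPKM (WT). The groups of Zeb1 did not overlap, with MSC KO higher, as was true of 26.6% of tested genes. Its fitted difference was 0.31 ± 0.09 (95% interval 0.04 to 0.59, adjusted p = 0.22, limma), and Zeb2, known from effector cells, was at 0.456 and 0.529 FPKM (MSC KO) against 0.251 and 0.218 FPKM (WT). Bcl6 (chromosome 16, mm9, 23965137 to 23988698) was at 0.798 (MSC KO 1) and 0.331 FPKM (MSC KO 2), against 0.857 (WT 1) and 0.641 FPKM (WT 2). It stayed under the filter and was not tested. At an estimated 92.6 and 42.9 fragments (MSC KO) against 89.5 and 86.9 (WT), its ratio to WT had a 95% counting interval of 0.689 to 1.26 (first table) and 0.350 to 0.753 (second) (Clopper-Pearson, counting error only). The authors' deposited tables did not call Bcl6 (q = 0.999 in both).

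**Figure D3:**
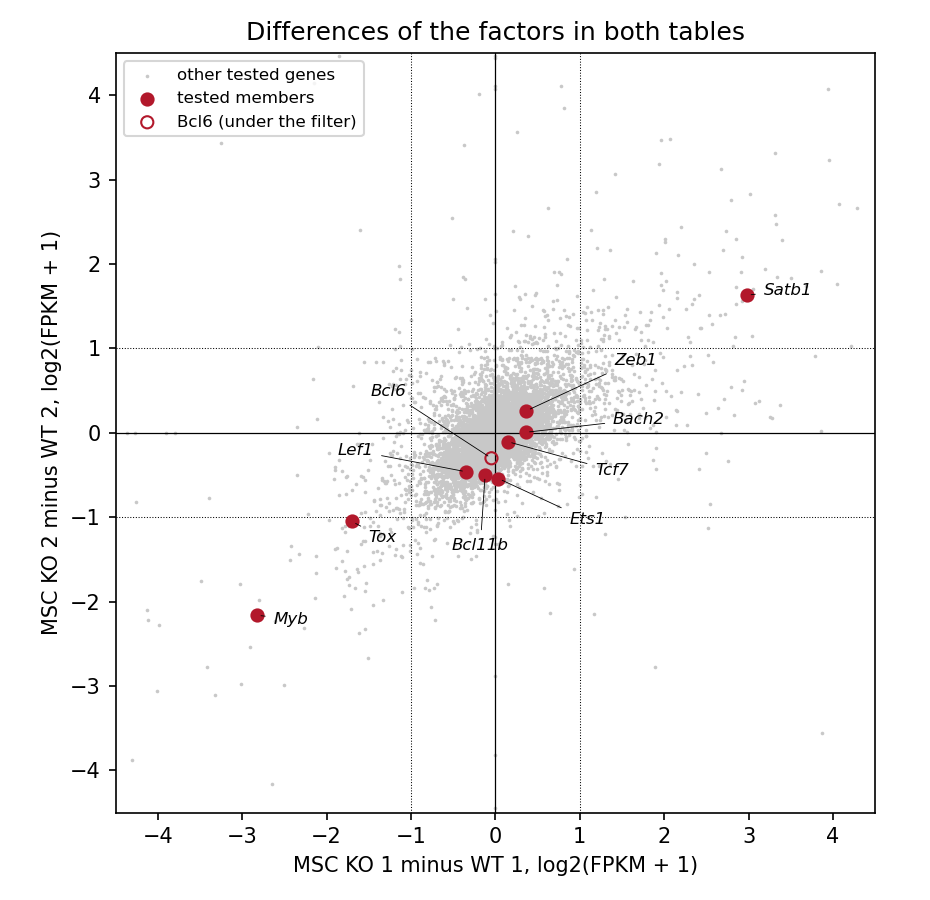
Difference of each gene in the first table (horizontal) and in the second table (vertical) on the log2(FPKM + 1) scale, with tested genes in grey, tested members filled, Bcl6 open and dotted lines at 2-fold; 65 genes lie outside the axes. Satb1 stands at the upper right, Myb and Tox at the lower left, and the other members within the 2-fold lines.

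In the order of levels, Ets1 and Tcf7 led in WT and together held 58.6% and 58.9% of the members' summed FPKM there. They held 55.1% in MSC KO 1 and 58.6% in MSC KO 2. Lef1, Myb and Bcl11b followed in WT, then Satb1, with Zeb1, Tox and Bach2 lying close together (7.59 to 8.93 FPKM) and Bcl6 last. In MSC KO 1 Satb1 came next after Ets1 and Tcf7. In MSC KO 2 it came after Lef1 as well, at 38.1 FPKM beside 41.1 FPKM, and there Tcf7 exceeded Ets1. Myb and Tox were the lowest but for Bcl6 in both MSC KO-labelled libraries. Of the tested members 4 were lower in both tables (Lef1, Myb, Tox and Bcl11b) against 37.5% of tested genes, and 3 were higher in both (Satb1, Bach2 and Zeb1) against 31.2%. Tcf7 and Ets1 had opposite signs in the tables, as did 30.9% of tested genes. The groups did not overlap for the same 4 lower members, against 32.5% of tested genes, nor for the same 3 higher ones, against 26.6%. Their median difference was -0.25, and it was 0.04 (first table) and -0.46 (second), beside -0.02 over all tested genes.

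The patterns most like those of Tcf7 and Lef1 were sought over the 4 libraries by the distance between log2(FPKM + 1) values centred on each gene's mean. The search covered tested genes and left out the members, rows naming several genes, and Gm, Rik and small RNA symbols. Nearest to Tcf7 were Mdh2, Prelid1, G3bp2, Chmp2b and Ninj1 (distances 0.00412 to 0.0181). Mdh2, a mitochondrial malate dehydrogenase, was at 401 and 343 FPKM (MSC KO) against 362 and 369 FPKM (WT). Nearest to Lef1 were Git2, Ano6, Pbrm1, Nat15 and Lbr (distances 0.00865 to 0.02). Git2, a regulator of ARF GTPases, was at 13.9 and 13.2 FPKM (MSC KO) against 17.8 and 18.6 FPKM (WT).

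Genes that accompany these factors in naive and memory-precursor T cells differed in both directions. Of 18 such genes, all tested, 6 were higher and 6 lower in both tables (31.2% and 37.5% of all tested genes). The median difference was -0.0024, and 0 passed by limma (10 had an unadjusted p under 0.05, against 20.4% of all tested genes). Among the lower ones was Klf2, a quiescence factor, at 4.76 and 5.24 FPKM (MSC KO) against 56.7 and 53.0 FPKM (WT). Ltb, also lower in both, was at 163 and 198 FPKM (MSC KO) against 339 and 328 FPKM (WT). So was Igfbp4, at 139 and 55.8 FPKM (MSC KO) against 236 and 237 FPKM (WT). Ccr7, a chemokine receptor for lymph node homing, was at 279 and 295 FPKM (MSC KO) against 221 and 229 FPKM (WT). Il7r, the interleukin-7 receptor, had opposite signs in the tables, at 29.9 and 25.7 FPKM (MSC KO) against 23.7 and 26.2 FPKM (WT). Dapl1 was at 140 and 467 FPKM (MSC KO) against 51.7 and 54.7 FPKM (WT), and Cxcr5 at 2.43 and 2.04 FPKM (MSC KO) against 0.820 and 0.767 FPKM (WT). Foxo1, which drives Klf2 and Il7r, was at 43.5 and 31.8 FPKM (MSC KO) against 27.8 and 26.8 FPKM (WT) (0.43 ± 0.14, adjusted p = 0.237, limma). Ccr7, Il7r, Foxo1, Ltb and Igfbp4 were picked out after their values were seen.

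Among 16 transcription factors that direct effector differentiation, 14 were tested. Of these 11 were higher in both tables (31.2% of all tested genes) and 1 lower (37.5%). The median difference was 0.73, beside -0.02 over all tested genes, and 0 passed by limma, while 9 had an unadjusted p under 0.05 (20.4% of all tested genes). Batf, an AP-1 partner, was at 188 and 81.0 FPKM (MSC KO) against 25.2 and 27.5 FPKM (WT), and its relative Batf3 at 52.7 and 34.2 FPKM (MSC KO) against 9.64 and 11.2 FPKM (WT). Irf4, which binds DNA with BATF, was at 166 and 160 FPKM (MSC KO) against 63.1 and 65.9 FPKM (WT). Eomes, a T-box factor of cytotoxic and memory T cells, was the one lower in both, at 0.322 and 0.585 FPKM (MSC KO) against 4.81 and 5.16 FPKM (WT). Prdm1, which encodes BLIMP1, the counterpart of BCL6, was under 0.2 FPKM in every library.

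Partners of TCF1 and LEF1 differed in both directions. Of 15 tested among 17 genes of this list, 4 were higher and 8 lower in both tables (31.2% and 37.5% of all tested genes). The median was -0.11, and 0 were called by limma (2 with an unadjusted p under 0.05, against 20.4%). Axin2, a classical target of beta-catenin with TCF/LEF, was at 1.56 and 1.43 FPKM (MSC KO) and 1.502 and 1.42 FPKM (WT). Ctnnb1, beta-catenin itself, was at 67.5 and 65.0 FPKM (MSC KO) against 76.3 and 76.2 FPKM (WT). Of the Groucho co-repressors, Tle1 was at 13.7 and 15.9 FPKM (MSC KO) against 8.62 and 8.60 FPKM (WT) (0.71 ± 0.10, adjusted p = 0.14, limma) and Tle3 at 28.0 and 23.5 FPKM (MSC KO) against 36.4 and 36.6 FPKM (WT) (-0.49 ± 0.11, adjusted p = 0.18). Pygo2, a co-activator of beta-catenin, was at 24.6 and 25.8 FPKM (MSC KO) against 21.4 and 21.9 FPKM (WT). Tle2, chosen after its values were seen and under the filter, was at 0.729 and 0.850 FPKM (MSC KO) against 0.231 and 0.206 FPKM (WT).

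BACH2 competes with AP-1 factors for similar DNA sites and pairs with small MAF proteins. Of 10 tested among 12 such genes, 6 were higher and 1 lower in both tables (31.2% and 37.5% of all tested genes). The median was 0.22, and 0 were called by limma (4 with an unadjusted p under 0.05, against 20.4% of all tested genes). Besides Batf, Fosl2 was at 29.1 and 16.9 FPKM (MSC KO) against 4.64 and 4.76 FPKM (WT) (2.03 ± 0.23, adjusted p = 0.123, limma). Fos was at 4.04 and 1.82 FPKM (MSC KO) against 0.819 and 1.02 FPKM (WT), and Junb at 538 and 419 FPKM (MSC KO) against 360 FPKM in both WT libraries. The small MAF genes Mafg, Mafk and Maff were between 0.892 and 1.45 times WT. Among co-repressors of BCL6 and BCL11B and partners of SATB1, 11 of 12 genes were tested. Of these 2 were higher and 7 lower in both tables (31.2% and 37.5% of all tested genes). The median was -0.16 and 0 were called by limma (2 with an unadjusted p under 0.05, against 20.4%). Rbbp4, a histone-binding subunit of the NuRD complex, was at 73.2 and 73.7 FPKM (MSC KO) against 92.4 and 93.3 FPKM (WT), and Rbbp7 at 163 and 175 FPKM (MSC KO) against 215 and 209 FPKM (WT). Ncor1, a co-repressor that BCL6 recruits, was at 12.5 and 16.7 FPKM (MSC KO) against 17.5 and 19.2 FPKM (WT), and the deacetylase gene Hdac1 at 106 and 111 FPKM (MSC KO) against 121 and 122 FPKM (WT). Of the paralogs of the members, 9 of 16 were tested. Tcf7l1 and Bach1 were the 2 lower in both tables (37.5% of all tested genes), with 0 higher in both (31.2%). By limma 0 were called (1 with an unadjusted p under 0.05, against 20.4%).

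**Figure D4:**
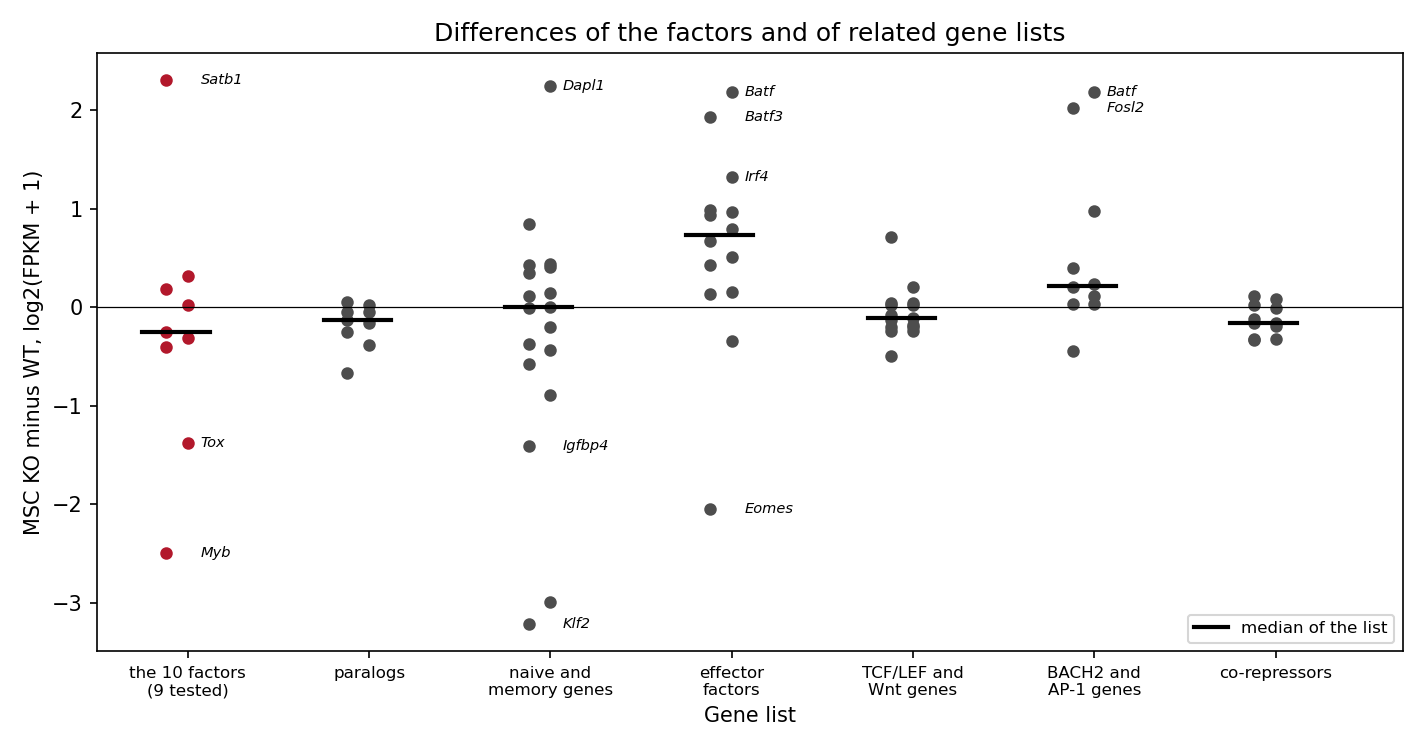
Fitted MSC KO minus WT difference of each tested gene on the log2(FPKM + 1) scale in the factors and in 6 related lists, with the median of each list as a bar and some of the genes with a fitted difference of at least 2-fold named. Satb1 and Myb lie at the 2 ends of the factors, and the effector factors have the highest median, at 0.73.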

How the data were processed

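RNA libraries of induced Treg cells, 2 labelled MSC KO and 2 labelled WT, were deposited by the authors as 2 gene tables, each with 1 library of either group. TopHat and mm9 are named in the submitters' processing notes. The TopHat version and the gene annotation: not given in the sources used here. No unit is named. The layout and size of the deposited numbers are those of FPKM, and they were taken as such. The p-value and q-value of each table are the authors' own test of 1 library against 1. Rows without a gene symbol (1925 and 2325) and date-like symbols (24 per table) were left out, as were 3 symbols whose loci did not overlap and 6 with a failed estimate. Rows naming several genes were not split.

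Genes with a mean of at least 1 FPKM were compared on log2(FPKM + 1), so that fold changes of low genes are understated, by limma 3.58.1 (R 4.3.3). The design held group and table (a block), with a trended prior, two-sided tests and Benjamini-Hochberg adjustment over 10587 genes at 0.05. The prior had 2.35 degrees of freedom. Depth was estimated from genes with a single GENCODE M21 transcript over 2500 bp, matched by name; between 50.5% and 64.5% of the low values used lay within 0.15 of a whole fragment, so depth is rough. Fragments of a member take its longest transcript. Promoters are RefSeq's, matched by symbol for 7 of the 10 members. Tox and Ets1 had no entry, and Zeb1 was not looked up. Python 3.11.15 and pandas 2.3.3 prepared the tables.

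Members, gene lists, tests and naming rule were chosen with earlier results of these data known. The rule names all members, their paralogs, up to 4 genes per list, ranked by the smaller of their 2 within-table differences of equal sign, and the 5 patterns nearest to Tcf7 and Lef1. Genes of a list named outside it (Il7r, Ccr7, Foxo1, Ltb, Igfbp4, Prdm1, Axin2, Tle2, the small MAF genes) were chosen after their values were seen. Values of some genes that the rule names are not reported here.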

Additional observations from a re-analysis of the deposited data

How the results depend on the processing

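Over 14 alternatives, the sign of the fitted difference of Lef1, Satb1, Bach2, Myb, Tox, Ets1, Bcl11b and Zeb1 was the same, while that of Tcf7 (0.02) was -0.021 after scaling all libraries to an equal sum and -0.094 to 0.135 when 1 library was left out. The count of called genes, 1 of 10587, was 0 with no filter on low values, with a prior without trend and under quantile normalization, 3 with a mean of at least 5 FPKM, 7 after scaling to an equal sum and 26 with small RNA symbols left out. With no replicate block, that is without the table in the design, it was 153, and 1 member (Myb) was called. Same-numbered libraries deviated from their group means with a Pearson r of 0.06 over genes, so the numbers themselves do not show a pairing, and the block stands for tables that may be scaled apart. Leaving out 1 library in turn, which also drops the block since no residual degree of freedom would be left, gave 0 to 2665 called genes and 0 to 6 called members (2286 genes and 6 members without MSC KO 1, 2665 and 4 without MSC KO 2, and 0 members without WT 1 or WT 2). Members lower in both tables numbered 5 in place of 4 under quantile normalization, after scaling to an equal sum and with no filter. Counts within both tables could not be made without a library, since its table then holds 1 library. The median of all genes moved by under 0.1 in every scaling. With 2 libraries per group and 1 residual degree of freedom, a member that did not pass is not shown to be equal. Tables without read counts leave the precision of single values to a rough depth.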

Other observations

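The patterns nearest to Satb1 and to Myb over the 4 libraries were looked up after their values were seen, by the distance between centred log2(FPKM + 1) values. The same symbols were left out as for Tcf7 and Lef1. Nearest to Satb1 were Frmd4b (8.44 and 2.76 FPKM (MSC KO) against 0.247 and 0.271 FPKM (WT)), Il1rn, which encodes the interleukin-1 receptor antagonist (46.6 and 17.6 FPKM (MSC KO) against 4.74 and 4.67 FPKM (WT)), and Batf, with Socs3 and Cst7 behind them. Nearest to Myb were Pld4 (0.385 and 1.35 FPKM (MSC KO) against 8.63 and 8.28 FPKM (WT)) and Art4 (0.212 and 0.707 FPKM (MSC KO) against 6.41 and 7.01 FPKM (WT)), followed by Tspan9, Eomes and Ifi203 at larger distances.

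Bach2 had 3 further rows at the same locus in each table, which the comparison did not use. They were at 1.22 to 3.26 FPKM in MSC KO 1 and 0.528 to 1.52 FPKM in MSC KO 2, against 1.17 to 1.75 FPKM in WT 1 and 1.59 to 2.20 FPKM in WT 2. Their values in the second table were all lower in the MSC KO-labelled library, where the main row was almost equal. The tables do not say what these rows represent.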
